A study of Drosophila melanogaster with 4 samples.

Results

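Circular RNAs (circRNAs) of the fly head that span at least 300 and under 2000 bp of the genome and share neither end with another listed circRNA are described here. They numbered 857 of the 2563 circRNAs in a table deposited with ribosome footprints from heads of the fruit fly Drosophila melanogaster. A circRNA was taken when each of its coordinates occurred as the same end in no other row of the same chromosome. Neither end is thus shared, as that end, with another listed back-splice. Span is the distance on the genome between the ends, introns included. The 4 libraries of the study were labelled by lysis buffer, 2 as low and 2 as high detergent. The labels' protocols say that heads 1 and 2 were homogenized by an earlier method, and 200 frozen heads were lysed in 0.1% Triton X-100 for heads 3 and 4. The labels give no strain, genotype, sex or age, and do not tie a head number to a buffer. The values below are therefore the authors' read counts over all samples together, with no replicate error. Intervals of read counts cover counting error only. Those of shares, differences and medians treat circRNAs as independent draws, although circRNAs are not replicates, and are descriptive. The table holds no levels of linear mRNAs, so the tissue could not be checked against marker genes.

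A circRNA forms when the spliceosome joins an exon's end backwards, to the start of that exon or of one before it. In flies these rings are plentiful in neural tissue, lack a cap and a poly(A) tail, and outlast many linear mRNAs. A ribosome can be assigned to the ring and not to the linear mRNA when its footprint crosses the back-splice junction. The reads are taken to be such footprints, which the table does not state. Where a ring carries the host's start codon, translation from it would run through the coding bases and then across the junction into sequence the linear mRNA never reads next.

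The circRNAs nearest to the span limits, on either side, had 0 reads. Just inside the lower limit were circRNAs of t, RhoGAP100F and CadN2, each spanning 300 bp with 0 reads, and just outside it those of Lar, l(3)80Fj and tou, each of 297 bp with 0 reads. Just inside the upper limit were circRNAs of chn (1994 bp), CG33543 (1987 bp) and Usp2 (1984 bp), and just outside those of dlg1 (2000 bp), CG34370 (2006 bp) and Proc-R (2017 bp), all with 0 reads. The members spanned 827 bp at the median (95% order-statistic interval 786 to 869), with the middle of the distribution, quartile to quartile, from 548 to 1194 bp. 1 of the 857 had an end that was the opposite end of another row.

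The members were spread thinly over many genes. They came from 699 host genes by current symbol, of which 570 gave 1 member, 107 gave 2 and 22 gave 3 or more. The genes with most members were eEF1alpha1 (5), which encodes a translation elongation factor, Trpm (4), a cation channel gene, and side-VI (4), a gene of the sidestep family of cell-surface proteins. All members of these 3 genes had 0 reads. None of the 5 eEF1alpha1 members had the length of an exon or of a run of exons with their introns, unlike those of Trpm and side-VI. Genes are printed by current symbol, taken from the accession in the table where it was matched, and overlapping genes can share a circRNA. For 12 members the table's symbol and its RefSeq accession led to different genes.

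Most members matched exon ends, and most of those assigned held fewer than 5 exons. The span of 722 of the 857 (84.2%, exact binomial interval 81.6% to 86.6%) equalled the length of an exon block, that is, of 1 exon or of a run of neighbouring exons with the introns between them. It was 452 of 522 (86.6%, 83.4% to 89.4%) in rows of the same span range that share an end, 210 of 231 (90.9%, 86.4% to 94.3%) in longer unique-end rows and 41 of 305 (13.4%, 9.82% to 17.8%) in shorter ones, so the members differ here from the shorter rows. Of the 712 members that could be assigned to 1 block of a coding transcript, 202 (28.4%, 25.1% to 31.8%) held 1 exon in every matching transcript, beside 93 of 441 (21.1%, 17.4% to 25.2%) in rows of the same span range that share an end. In longer unique-end rows it was 14 of 206 (6.80%) and in shorter ones 30 of 39 (76.9%), so this number goes with span. 22 members (3.09%) held 5 or more exons in every matching transcript, beside 276 of 1917 over all assigned rows (14.4%). In rows of the same span range that share an end it was 20 of 441 (4.54%). In longer unique-end rows it was 50 of 206 (24.3%), so this share too goes with span. A member began at exon 2 of a matching transcript in 367 cases (51.5% of the 712, 47.8% to 55.3%), beside 861 of 1917 over all assigned rows (44.9%). The share was 97 of 206 (47.1%) in longer unique-end rows and 20 of 39 (51.3%) in shorter ones. In rows of the same span range that share an end it was 163 of 441 (37.0%).

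An annotated start codon lay inside 293 of the 712 members (41.2%, 37.5% to 44.9%), beside 724 of 1917 over all assigned rows (37.8%, 35.6% to 40%). The share was 87 of 206 (42.2%, 35.4% to 49.3%) in longer unique-end rows, much as in the members, and 127 of 441 (28.8%, 24.6% to 33.3%) in rows of the same span range that share an end. These were largely exon 2 rings, since 261 of the 293 (89.1%) began at exon 2 in a matching transcript. Over all assigned rows with a start codon it was 600 of 724 (82.9%). In longer unique-end rows it was 70 of 87 (80.5%), in shorter ones 12 of 13 (92.3%). Thus it is no trait particular to the members. A further 387 members (54.4%) consisted of coding sequence alone with neither start nor stop codon, 20 (2.81%) were untranslated alone and 15 (2.11%) touched a stop codon. The median spliced length, counting exons alone and taking the shortest matching transcript, was 598 bases (572 to 639). The introns flanking the members were long, with medians of 2641.5 bases upstream (2309 to 2959) and 1935.5 bases downstream (1644 to 2238). Over all assigned rows of the table the medians were 2762 and 2024 bases, each within the interval of the members.

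Footprint reads fell on 48 of the 857 members (5.60%, exact binomial interval 4.16% to 7.36%), beside 4.76% of all rows. The members held 88 reads (exact Poisson interval 70.6 to 108), which is 38.3% of the 230 reads in the table. Of the 48, 39 had exactly 1 read and 9 had at least 2, or 1.05% of the members beside 1.01% of all rows. The other 809 members had 0 reads. For each of them 0 counts leave room for up to 1.30% of all reads by a set floor of 3 of 230 reads. By the exact binomial limit it is up to 1.59%. In rows of the same span range that share an end with another row, 31 of 522 had a read (5.94%, 4.07% to 8.32%). The difference of members minus these rows was -0.338 percentage points (Newcombe interval -3.06 to 2.12). Among unique-end rows outside the span limits, 1 of 305 shorter ones (0.328%) and 13 of 231 longer ones (5.63%) had a read. The shares are thus close except in the short rows. No test was made of these differences, because circRNAs of 1 set of pooled reads are not replicates.

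The rows with most reads that are not members came from mbl (42 reads, shared end), kis (11 reads, shared end, a span of 3663 bp) and CG34126 (4 reads, shared end). Among members the reads were concentrated in 1 circRNA. A circRNA of Sh (Shaker), which encodes a voltage-gated potassium channel, had 28 of the 88 reads (Poisson interval 18.6 to 40.5). Without it, 60 reads (45.8 to 77.2) fell on 47 of 856 members. The Sh circRNA lies on chromosome X from 17933118 to 17934416 (dm3) and holds the start codon with 146 coding bases before the junction. It matched 1 exon of 1299 bases or 2 exons of 1055 bases in different transcripts. Its flanking introns measured 19351 bases upstream and 85738 bases downstream. The other 2 Sh members had 0 reads.

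**Figure D1:**
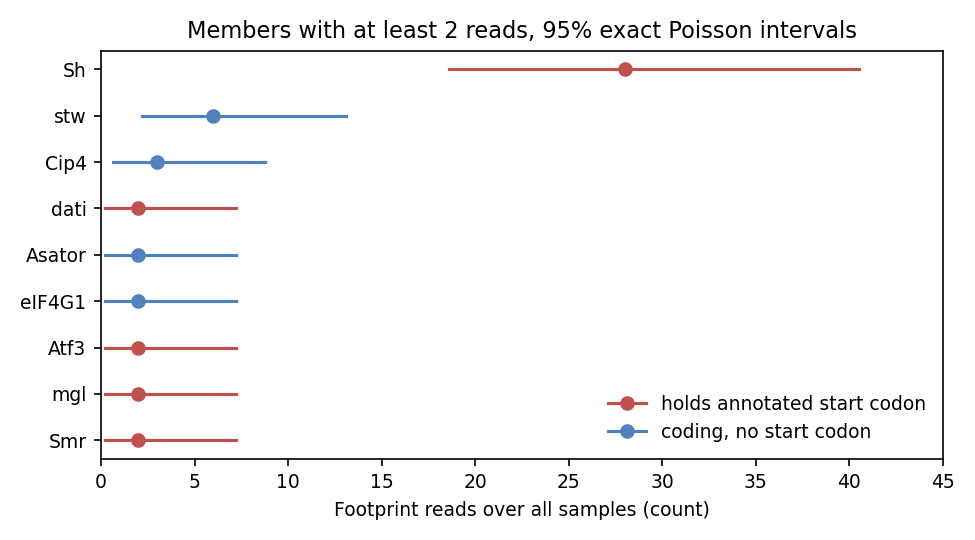
Footprint reads over all samples (x axis, count) on the 9 members with at least 2 reads, by host gene (y axis), with 95% exact Poisson intervals as lines and colours for presence of an annotated start codon. The interval of Sh (18.6 to 40.5) lies above those of the other 8, which overlap one another.

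The next members held coding sequence without a start codon. The stw ring (CG42345 in the table), from a laccase gene that acts in cuticle tanning, had 6 reads (2.20 to 13.1) on 1 exon of 490 bases at 2R from 1311255 to 1311744. The Cip4 ring, from the gene of an F-BAR protein that bends membranes, had 3 reads (0.619 to 8.77) on 2 exons totalling 425 bases at 3L from 4324922 to 4325410. These were the members with a read that had the shortest spans, 490 and 489 bp. The intervals of stw and Cip4 overlapped, so their order is not resolved.

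A further 6 members had 2 reads each (0.242 to 7.22 for each). Of these, 4 held a start codon. They came from dati, a zinc finger transcription factor gene (4 from 411051 to 412170), Atf3, a bZIP transcription factor gene listed as A3-3 (X from 1145205 to 1146129), mgl (Megalin), an endocytic receptor gene (X from 9366032 to 9367299), and Smr, a transcriptional corepressor gene (X from 12624967 to 12626433). The dati, mgl and Smr rings were single exons of 1120, 1268 and 1467 bases. The Atf3 ring had 2 exons totalling 847 bases. The other members with 2 reads were inner coding blocks of Asator, a tau-tubulin kinase gene (4 from 493773 to 495394, 2 exons, 889 bases), and eIF4G1, the scaffold of the cap-binding translation initiation complex (4 from 945709 to 947287, 4 exons, 1000 bases). None of these can be told from a member with 1 read at this depth.

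The 39 members with 1 read (0.0253 to 5.57 for each) came from genes of many kinds. RNA-binding proteins were represented by bru1, larp, shep and mub. Channels and exchangers were represented by the potassium channel genes Shal and SK, the chloride channel gene ClC-a and the calcium exchanger gene zyd. Signalling genes were for (cGMP-dependent protein kinase), Pde6 (a cyclic nucleotide phosphodiesterase), dock (an SH2 and SH3 adaptor in axon guidance), daw (an activin-like ligand), Dad (an inhibitory Smad), cact (the inhibitor of the NF-kappaB factor Dorsal), Ptpmeg2 (a tyrosine phosphatase) and app (a palmitoyltransferase of the Fat pathway). Transcription genes were tai (a steroid receptor coactivator), Mnt (a partner of Max) and a circRNA listed under Trl, the GAGA factor gene.

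The remaining members with 1 read included scaffold, adhesion and matrix genes, namely Rim (active zone), Magi, CAP, Svil (actin-linked supervillin), fred (an adhesion protein of the echinoid family) and Ppn (papilin, an extracellular matrix protein). Others came from Nin (ninein, a centrosome protein), Sarm (axon degeneration), Ubr3 (a ubiquitin ligase), Tmtc1, Pura, and 7 genes named here without a role, CG34398, CG3961, CG12581, CG11155, CG13375, CG15312 and CG17162. The accession of the circRNA listed under Trl names CG42507, in whose transcripts the matched exon is untranslated, so its class depends on the gene chosen. The circRNA of bru1 matched several exon blocks of its gene and was not assigned to 1. A further circRNA with 1 read came from mgl.

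Of the 699 host genes, mgl gave 2 members with a read. The mgl ring with 2 reads held exon 2 and was followed by an intron of 88633 bases. The mgl ring with 1 read (X from 9276643 to 9277398) held 2 coding exons from exon 3 and was preceded by an intron of the same length, 88633 bases. The pair thus sits on either side of 1 long intron. Of the 47 host genes with a footprinted member, 14 had more than 1 member, and 13 had further rows in the table that are not members. In 3 of these 13 a row that is not a member also had a read, namely Asator, Svil and eIF4G1.

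Every read on a member fell on a ring whose span matched exon ends. The count was 48 of 722 members at exon ends (6.65%, 4.94% to 8.72%) and 0 of 135 away from them (0%, with an exact upper limit of 2.70%). This belongs to a difference known from the whole table, of which these circRNAs are a part, and is no independent support for it. Among rows that are not members, a read fell on 67 of 1228 at exon ends (5.46%) and on 74 of 1706 in all (4.34%). Some rows away from exon ends, outside the members, thus had a read. Adding or removing 1 to 11 bases left between 8 and 23 members (0.933% to 2.68%) with a match, against 722 at the exact length.

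Members with a start codon had a read more often than members without, by counts. A read fell on 27 of 293 with a start codon (9.22%, 6.16% to 13.1%) and on 20 of 419 coding members without (4.77%, 2.94% to 7.28%). The difference was 4.44 percentage points (Newcombe interval 0.695 to 8.64). Counting members with at least 2 reads, it was 0.752 (-1.02 to 3.05). The whole table is known to differ in this way too, and the members are part of it. Members with a start codon held 58 reads, and 30 without the Sh circRNA, while those without a start codon held 29.

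Rings of 1 exon were likewise footprinted in 20 of 202 cases (9.90%, 6.15% to 14.9%), against 27 of 510 with more exons (5.29%, 3.52% to 7.61%). That difference was 4.61 percentage points (0.503 to 9.77). It was 1.00 (-0.77 to 4.05) counting members with at least 2 reads, and 2.95 (-0.771 to 7.62) with span limits of 200 to under 3000 bp. Start codon and exon number go together, since 137 of the 202 rings of 1 exon held a start codon. A read fell on 16 of 137 members with both features (11.7%, 6.82% to 18.3%), on 11 of 156 with a start codon and more exons (7.05%, 3.57% to 12.3%), on 4 of 65 with 1 exon and no start codon (6.15%, 1.70% to 15.0%), and on 16 of 354 with neither (4.52%, 2.61% to 7.24%). Within rings of 1 exon the start codon difference was 5.52 percentage points (-4.14 to 13), and within the others 2.53 (-1.55 to 7.94). Both intervals include 0, so the features cannot be separated at this depth. Beginning at exon 2 went with 28 of 367 (7.63%) against 19 of 345 (5.51%), a difference of 2.12 percentage points (-1.60 to 5.85). In all, 11 such splits of the members were computed and their intervals were not adjusted for that number.

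**Figure D2:**
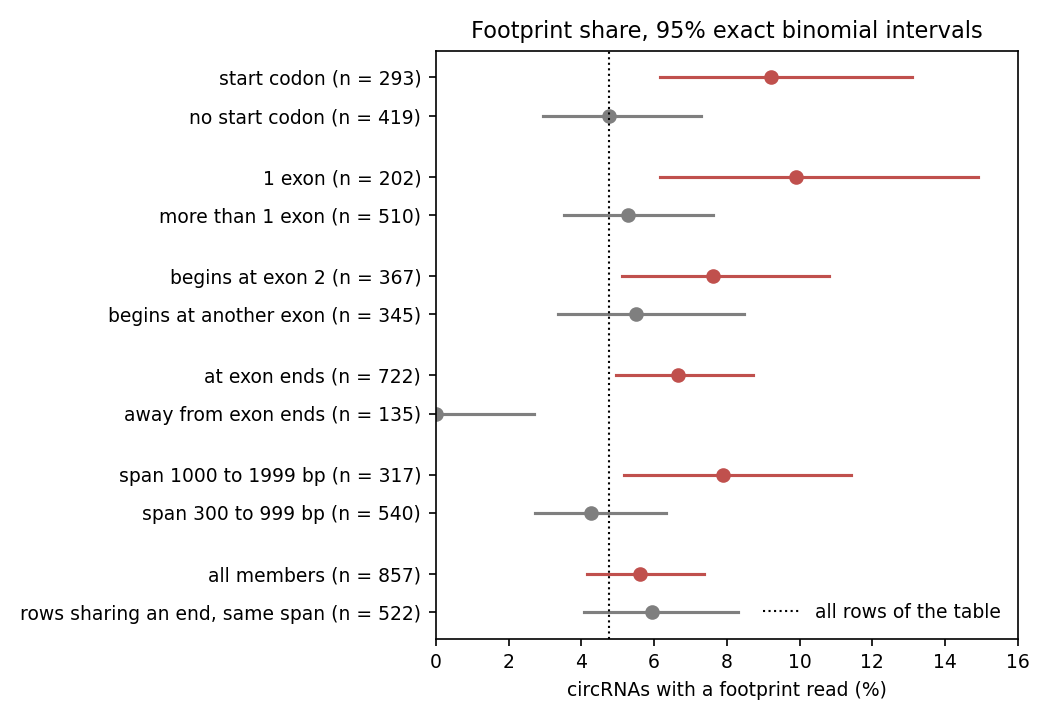
Share of circRNAs with a footprint read (x axis, %) in pairs of classes among the members, and in all members against rows of the same span that share an end (y axis, with the number of circRNAs), with 95% exact binomial intervals. The dotted line is the share over all rows, 4.76%; members with a start codon (9.22%) and with 1 exon (9.90%) lie above it, and the 135 members away from exon ends lie at 0.

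By annotation, the frame from the start codon reached the junction in nearly every ring with a start codon, in members and over all assigned rows alike. Of the 293 members with a start codon, 291 (99.3%) held no annotated stop codon, beside 718 of 724 over all assigned rows (99.2%). The host's frame was called open up to the back-splice in these. Any ring that ends before the host's stop codon is open by this definition, so the share is no finding about the members. The coding stretch before the junction had a median of 496 bases (414 to 559). In 87 of the 293 (29.7%, 24.5% to 35.3%) the spliced length was also a multiple of 3 in a transcript with an open frame. Over all assigned rows with a start codon it was 258 of 724 (35.6%, 32.1% to 39.2%), so this is no trait particular to the members. In such rings a frame crossing the junction would return to the start codon in phase. Whether the noncoding bases hold a stop codon in that frame was not examined. A read fell on 10 of these 87 (11.5%, 5.65% to 20.1%) and on 17 of the other 206 (8.25%, 4.88% to 12.9%). The difference was 3.24 percentage points (-3.62 to 12.2), an interval that includes 0.

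All 27 members with a read and a start codon had an open frame up to the junction, which follows from none of them touching an annotated stop codon. The coding stretch ranged from 66 bases (22 codons) in Ptpmeg2 to 1517 bases (505 codons) in for. In CAP, Svil, Ptpmeg2 and zyd the start codon lay inside the ring in some matching transcripts and not in others. In another matching transcript of Ptpmeg2 all 642 bases were coding, without a start codon. In SK the start codon opened the exon, so all 1176 bases were coding. In Sh it was 146 bases (48 codons), preceded by 909 bases of leader in the shorter transcript. In dati 1107 of the 1120 bases were coding, in Smr 506 of 1467, in mgl 418 of 1268 and in Atf3 348 of 847. The rings with reads thus range from almost wholly coding to mostly leader. The 10 whose length was a multiple of 3 came from Sh, Smr, dock, CAP, app, larp, CG13375, SK, Ptpmeg2 and zyd, and for Sh this held for the transcript with 1 exon.

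**Figure D3:**
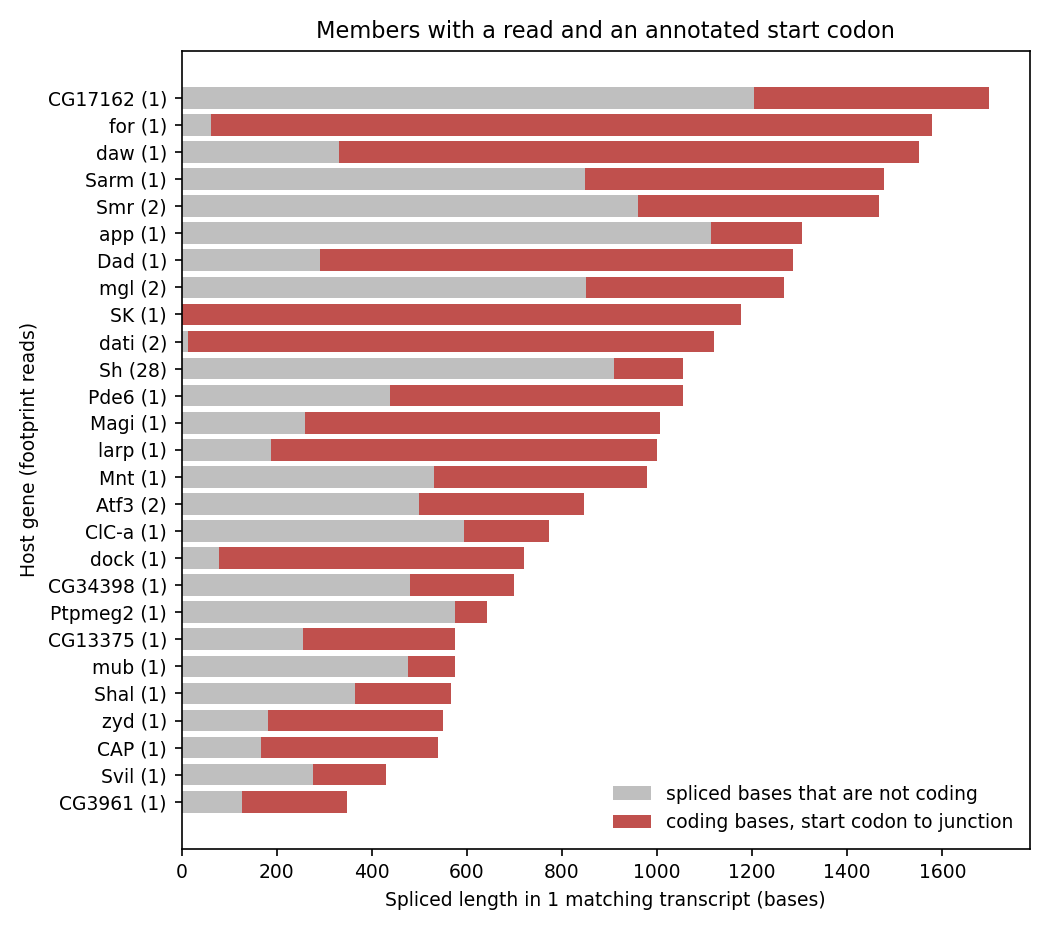
Spliced length in bases (x axis) of the 27 members with a read and an annotated start codon, by host gene with reads in brackets (y axis). Grey marks noncoding bases before the start codon and red the coding bases from it to the junction. Of the matching transcripts with the start codon and no stop codon inside the ring, the one with most coding bases is drawn. Among equals it is the shortest. The red part runs from 66 bases in Ptpmeg2 to 1517 in for.

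Among the 387 rings of inner coding sequence, 146 (37.7%, 32.9% to 42.8%) had a length that is a multiple of 3, beside 407 of 1096 over all assigned rows (37.1%). In such rings the annotated frame would return in phase. It would run around the ring without end unless the bases joined at the junction form a stop codon, which was not examined. Reads fell on 6 of these 146 (4.11%, 1.52% to 8.73%) and on 13 of the other 241 (5.39%, 2.90% to 9.05%). The 6 came from Tmtc1, shep, Ppn, CG11155, CG15312 and the mgl ring that starts at exon 3. The difference of -1.28 percentage points (-5.52 to 3.79) did not separate the classes.

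Footprinted members were longer than the rest once spliced. Their median spliced length was 866 bases (700 to 1007, n = 47), against 590 bases (558 to 627, n = 665) without a read, and the intervals did not overlap. Their median span was 1010.5 bp (866 to 1286) against 812 bp (777 to 862). By span, reads fell on 2 of 183 members under 500 bp (1.09%, 0.133% to 3.89%), which were stw and Cip4. From 500 to under 750 bp it was 11 of 184 (5.98%), from 750 to under 1000 bp 10 of 173 (5.78%), from 1000 to under 1500 bp 14 of 214 (3.62% to 10.7%), and from 1500 bp up 11 of 103 (10.7%, 5.45% to 18.3%). The shortest class also had the fewest rings at exon ends, 116 of 183 (63.4%), against 87.4% to 92.1% in the other classes. The part of exon ends in the lower share was not tested. Median flanking introns were 2897 bases upstream (1343 to 5462) and 3703 downstream (1666 to 6011) in members with a read. Without a read they were 2640 (2285 to 3023) and 1859 (1566 to 2185), and both pairs of intervals overlapped.

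**Figure D4:**
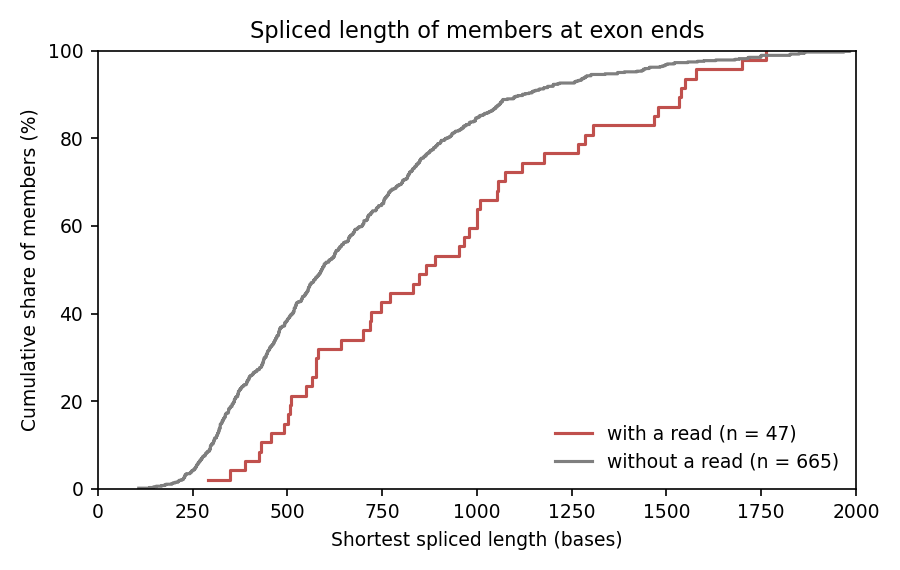
Cumulative share of members (y axis, %) by shortest spliced length (x axis, bases), for the 47 assigned members with a read and the 665 without. The curve with reads lies to the right over most of the range, with medians of 866 and 590 bases.

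By chromosome, reads fell on 5 of 21 members on chromosome 4 (23.8%, 8.22% to 47.2%), beside 13 of 122 of all rows there (10.7%). They included rings of dati, Asator, eIF4G1 and CG11155. A raised share on chromosome 4 was already known in the whole table, and these 5 are among its 13. The share of members was 7.80% on X (11 of 141), 6.99% on 2L (10 of 143), 6.13% on 3L (10 of 163), 3.50% on 3R (7 of 200) and 1.78% on 2R (3 of 169, 0.368% to 5.10%). The 3 on 2R were stw, CAP and Magi. On the heterochromatic and unplaced sequences 2 of 20 members had a read, from zyd and CG17162, both on the X heterochromatin sequence.

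Host genes were also grouped into 12 lists by role, and every list was small among the members. A list holds a choice of genes and not all genes of its role, so its counts depend on that choice. For example, shep, mub, ClC-a, Mnt and Atf3, whose rings had a read, are in none of the lists. Nor is Trpm, whose rings had 0 reads. The share over all rows, 4.76%, is the background for each. For ion channels and receptors, 3 of 20 members had a read (15.0%, 3.21% to 37.9%; 7 of 102 in the whole table, 6.86%), namely Sh with 28 reads and Shal and SK with 1 each. The 3 members of the calcium channel gene cac and the 2 each of para and eag had 0. For transcription and chromatin, 3 of 11 had a read (27.3%, 6.02% to 61.0%; 11 of 74 in the whole table, 14.9%), from Smr, dati and tai, with 0 for EcR, osa, tim and zfh1. For RNA-binding regulators it was 2 of 19 (10.5%, 1.30% to 33.1%; 5 of 77 in the whole table, 6.49%), from bru1 and larp, with 0 on the 3 members each of pum and Rbfox1. The genes of all lists were chosen with earlier results of these data known, so a list's share is a description.

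For signalling enzymes 2 of 28 had a read (7.14%, 0.877% to 23.5%; 6 of 90 in the whole table, 6.67%), from Pde6 and for. Synaptic genes had a read on 1 of 17 (5.88%, 0.149% to 28.7%; 4.81% in the whole table), the Rim ring, with 0 for the 2 members each of brp, lap and Spn. For cytoskeleton and traffic it was 2 of 19 (10.5%; 9 of 82 in the whole table), from Cip4 and Svil, with 0 for the 3 members each of shot and Patronin. Adhesion and guidance genes had 0 of 19 (exact upper limit 17.6%; 3 of 70 in the whole table, 4.29%), including 3 of CadN2 and 2 each of CadN, sli and Sema1a. For translation factors it was 1 of 10 (2 of 60 in the whole table, 3.33%), from eIF4G1. Just 1 of these 10 members matched exon ends.

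The lists for other cell types of the head were smaller still. Muscle genes had 0 of 13 members with a read (upper limit 24.7%) and photoreceptor genes 0 of 4 (upper limit 60.2%). In fat body and cuticle genes 1 of 5 members had a read, the stw ring, with 0 for FASN1, Yp3, apolpp and bmm. Glial genes had 1 of 7, from zyd, with 0 for drpr, Eaat1, loco, axo and ogre. In the whole table these lists had a read on 0 of 31, 0 of 14, 1 of 15 and 1 of 13 circRNAs. At these sizes none of the 4 can be told from the rest of the table.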

How the data were processed

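Ribosome footprints of fly heads were sequenced in 4 libraries. The submitters' processing notes name cutadapt 1.9.1 and genome build dm3, and per the file headers ribosomal RNA reads were removed. For the circRNA caller, its filters and the origin of the list, nothing was given in the sources used here. The deposited read count over all samples, a whole number that the authors did not normalize, was used. The 4 columns named for heads could not be tied to samples and were not used, so the spread between samples was not examined.

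Gene names came from the accession (846 of 857 members matched) or else the symbol, through NCBI's Release 6 table. Coordinates are dm3, with 1 added to the first. Spans were compared with exon block lengths of the host gene in Ensembl release 115 (BDGP6), and no coordinate was converted. Members matching several blocks (9) and 1 noncoding match were not classed, and introns are the shortest adjacent ones. Intervals are 95% exact Poisson, exact binomial, order-statistic or Newcombe (Wilson-based). No test was made, as planned. Members, host gene lists and the naming rule (every member with a read, the genes with most members, the rows at the span limits and the top rows outside) were chosen with earlier results of these data known. A named item is not reported here. The matching code was tested on exon blocks drawn from the same annotation, which does not test the match of dm3 spans to another build. Intervals were tested on simulated counts. PCR duplicates are not told apart. No genome sequence was used here, so no sequence is printed. Python 3.11.15, scipy 1.17.1, pandas 2.3.3, numpy 2.4.6 and matplotlib 3.10.9 were used.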

Additional observations from a re-analysis of the deposited data

How the results depend on the processing

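Depth limits these results, since 39 of the 48 members with a read rest on 1 read. Counting members with at least 2 reads gave a share of 1.05% and 49 reads, and counting each host gene once, by the table's own names, gave 48 genes in place of 88 reads (47 by current symbol, since mgl has 2 names in the table). With at least 2 reads the start codon difference was 0.752 percentage points (-1.02 to 3.05) and the exon number difference 1.00 (-0.77 to 4.05), both with fewer members counted. With spans of 200 to under 3000 bp the exon-end share was 78.3% and the exon number difference 2.95 percentage points (-0.771 to 7.62). With spans of 500 to under 1500 bp the exon-end share was 90.4% and the median span 882 bp. With genes from the table symbol the exon-end share was 80.6%, and with the start codon required in all matching transcripts the start codon share was 32.4%. The other 24 alternatives moved a value by less than its interval, or a count of reads by less than 1.5 times, and none changed a direction. Restricting the start codon and exon number differences to members whose symbol and accession lead to the same gene was chosen after seeing the data. No paired analysis was possible because the columns named for heads could not be tied to the samples and their replicate numbers, and alternatives by library were not run for the same reason.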
